A study of Mus musculus with 60 samples.

Results

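The genes described here are the longest of the mouse genome that were transcribed in these cells. They are the 189 transcripts, of 27665 in the count table, that span at least 500 kb on an autosome and had a mean count above 20 in at least 1 condition. The 189 transcripts belong to 188 genes, since Pde4d has 2 of them. Many of these genes act in the nervous system: 46 are on a list of cell adhesion and axon guidance genes, 41 on a list of signalling enzymes and growth factors, 23 on a list of synaptic scaffolds and trafficking proteins, 21 on a list of ion channels and neurotransmitter receptors, 10 on a list of transcription, chromatin and RNA regulators and 4 on a list of cytoskeleton and cilium genes, while 44 are on none of these. A further list, of genes known from common fragile sites, overlaps these lists and holds 32 of the members.

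A very long gene is almost entirely intron, and RNA polymerase II needs hours to move from its start to its end. Changes at the promoter or in elongation therefore reach the far end late, and splicing must join exons that lie far apart. Such genes are typical of neurons, replicate late in many cell types and overlap many of the common fragile sites. Cohesin, whose ring holds RAD21 as a subunit, extrudes loops of chromatin until it meets CTCF, a DNA-binding protein that also sits at many promoters. The acetyltransferases CBP and p300 act at enhancers and promoters, and A-485 blocks their catalytic activity.

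Nascent RNA was measured by EU-seq, in which cells take up 5-ethynyl uridine for some minutes before the RNA that holds it is captured and sequenced. All cells were E14 mouse embryonic stem cells (mESCs) or neuronal progenitor cells (NPCs) derived from them, and every line carried degron-tagged alleles in its controls as well. The first line, RAD21-AID, carries GFP-AID-Rad21. As mESCs it was kept in 500 µM indole-3-acetic acid (IAA) for 4 h, once with 2 control and 2 IAA libraries (the initial experiment) and once with 12 of either kind (the additional experiment). As NPCs it was sampled in pairs: a pair of control libraries, a pair at each of 1, 2 and 4 h in 500 µM IAA, and a pair treated with 10 µM A-485 for 1 h. The second line, CTCF-AID, carries GFP-AID-Ctcf, and its mESCs were sampled as 4 control libraries and 4 with IAA for 6 h, 2 of either kind being unstranded and 2 stranded. The third, CTCF YF-AA, carries GFP-FKBP12F36V-Ctcf with a tyrosine and a phenylalanine of CTCF replaced by alanine, and was sampled untreated, 2 h and 4 h into dTAG-13 treatment (the sources name 100 or 200 nM), with 2 libraries per state. The last carries bTAG-ΔN-CTCF beside dTAG-CTCF-ΔC, and its libraries were stranded. It was sampled untreated or 2 h into treatment, with 2 libraries per state. Treatments were AGB1 (100 nM), dTAG-13 (again 100 or 200 nM by source) or the combination. The degrons act on proteins, which EU-seq does not measure, so depletion itself was not checked here. Each line is described by a single parental line. The study calls its replicates biological, and whether they were separate cultures of that line is not stated in the sources used here, so p values measure the spread between these libraries.

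Library totals were 4027449 to 21898781 counts. Within the NPC set, the replicate 2 library after 2 h of IAA was shallowest, at 10755624 counts. The NPC controls held all 9 neural progenitor markers above 10 CPM (counts scaled to a common library total) and 1 of 8 mESC markers above it, Sox2, which progenitors share. Their neuron list was also detected, with 10 of 11 genes above 10 CPM. In bulk libraries, fewer cells of a type and less RNA per cell cannot be told apart.

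The members span 501.713 to 4434.88 kb, with a median of 709.98 kb, and 44 of them exceed 1 Mb. Over the 18024 transcripts above the same count limit the median span was 22.8 kb. Members have a median of 17 exons (2 to 146), against 8, and exons make up a median of 0.665% of their span, against 11.7%. All but 3 are protein coding, and these 3 are lincRNAs. Chromosomes 1, 3 and 6 hold the most, with 17, 16 and 15. The members just inside the limit were Edil3, which encodes a secreted integrin ligand (chr13:88821511-89323223, plus strand, GRCm38, 501713 bp), and Dock1, a Rac activator (chr7:134670687-135173639, 502953 bp). Abca13 (492318 bp) and Kcnh7 (490865 bp) fell just short of it.

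Long genes also contain other genes. Of the members, 43 overlap another gene of the table and 34 have one nested inside them. In 18 members, other genes account for at least 25% of the count in the NPC controls or in the additional mESC controls, or lie over at least 50% of the span, so their counts may be those of a neighbour. These members include Fgfr2, Macrod2, Prkg1, Astn2, Camta1, Cacna1c and Iqschfp, and 171 members remain without them. The counts of some of them differed by library type. Astn2, which carries Trim32 on its other strand, stood at a mean of 36.1 CPM in the unstranded CTCF-AID controls and 1.31 CPM in the stranded ones. Prkg1, which carries Cstf2t, stood at 81.3 and 6.17 CPM. The span that was counted is also that of 1 transcript: among 182 members with a RefSeq gene of the same name, 4 were counted over more than 1.5 times the RefSeq span, namely Gm41335, Fgfr2, Rasgef1b and Slc7a11, the last over 551.089 kb against 134.152 kb.

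Promoters of the members resembled those of other transcribed genes in base composition. A RefSeq start within 1 kb of the counted start was found for 124 members. In the 250 bases before and 50 after it, the median GC content was 64.7% and the median number of CpG dinucleotides 20, against 60.7% and 20 over 11810 autosomal transcripts above the count limit. The letters of a GC box (GGGCGG on either strand) occurred in 56.5% of the members' windows and in 61.9% of the others, and TATAAA on either strand in 6.45% and 7.54%. The 3 promoters printed here belong to the member that fell most in mESCs (Enox1), the member that fell most in NPCs after IAA (Kcnd2) and the member that rose most there (Slc7a11). They are the 250 bases before the RefSeq start nearest the counted start (GRCm38.p6), at chr14:77156513-77156762 on the plus strand, chr6:21215096-21215345 on the plus strand and chr3:50443614-50443863 on the minus strand, and capitals mark each GC box. The RefSeq gene Slc7a11 reaches further upstream, to position 50499087, so its window lies inside that gene.
Enox1: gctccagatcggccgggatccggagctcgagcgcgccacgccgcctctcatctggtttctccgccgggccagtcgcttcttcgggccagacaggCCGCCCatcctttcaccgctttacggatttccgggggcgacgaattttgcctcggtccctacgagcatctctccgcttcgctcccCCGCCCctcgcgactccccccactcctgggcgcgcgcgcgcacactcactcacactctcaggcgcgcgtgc
Kcnd2: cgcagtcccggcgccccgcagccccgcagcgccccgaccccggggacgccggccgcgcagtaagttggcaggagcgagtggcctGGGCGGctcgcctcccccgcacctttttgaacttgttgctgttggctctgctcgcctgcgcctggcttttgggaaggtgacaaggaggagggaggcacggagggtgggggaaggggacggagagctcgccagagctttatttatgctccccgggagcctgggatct
Slc7a11: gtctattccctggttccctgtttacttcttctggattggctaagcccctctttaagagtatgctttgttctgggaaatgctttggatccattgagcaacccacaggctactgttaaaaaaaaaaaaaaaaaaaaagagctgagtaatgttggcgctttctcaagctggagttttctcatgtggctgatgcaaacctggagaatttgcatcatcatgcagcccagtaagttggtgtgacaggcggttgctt
The Enox1 window held 2 GC boxes and 33 CpG dinucleotides, the Kcnd2 window 1 and 22, and the Slc7a11 window 0 and 2. A match is a description of letters and not evidence of a bound factor.

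In control NPCs the very long genes were more transcribed than in control mESCs. Levels are given here as CPM per kb of counted span, so that genes of unequal length can be compared. The median member stood at 0.0634 in NPC controls and 0.0139 in the controls of the additional mESC experiment. In all, 104 members were at least 2-fold higher in NPCs, 18 at least 2-fold lower and 67 within 2-fold, with a median ratio of 2.69. Cell type and experiment cannot be told apart in this comparison, and it was not tested. The ratio was not taken over all transcripts or over shorter genes, so it is not shown to be particular to the members. The highest members in NPCs were Exoc4 (1.84, an exocyst subunit), Lpp (1.51, a focal adhesion protein), Dock1 (1.42), Ptprg (1.16, a receptor tyrosine phosphatase) and Gpc6 (1.09, a heparan sulfate proteoglycan). The highest in mESCs were Exoc4 (1.35), Dock1 (0.937), Fgfr2 (0.911), Ptprg (0.868) and Gm20388 (0.801), of which Fgfr2 and Gm20388 hold other genes. The widest contrasts were Npas3, a neural transcription factor, at 248 times its mESC level, Fat3, a giant protocadherin, at 211 times, and Foxp2, a forkhead factor, at 200 times. Cntnap2, a neurexin-family adhesion protein, went the other way, with 20.4 CPM in NPCs and 292 CPM in mESCs.

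After IAA in RAD21-AID NPCs, nascent RNA of most very long genes fell. At 4 h, 155 of the 187 members tested were lower and 5 higher, and their median log2 fold change was -0.66. Over all transcripts tested, 21.1% were lower and 18.4% higher, and the median was -0.02. At 2 h, 127 of 187 members were lower and 1 higher, with a median of -0.54, where 9.21% and 5.35% of all transcripts were called. At 1 h, counted over the first 90 kb of each gene, 34 of 159 members were lower and 1 higher, with a median of -0.24, where 7.4% and 8.34% were called. The 2 h values depended on 1 library: without IAA 2 h replicate 1, 154 members were lower and the median was -0.67, and the same-numbered pairs of 4 h against 2 h had medians of -0.24 and 0.02. These comparisons share their control libraries, and a call needs an adjusted p under 0.05 from edgeR's quasi-likelihood test. A fall of at least 2-fold was called for 2, 12 and 49 members at 1, 2 and 4 h, and for 0.189%, 1.17% and 2.75% of all transcripts. A rise of that size was called for 0, 1 and 1 members, and for 0.397%, 0.331% and 0.817% of all transcripts. For 171 of the 187 members at 4 h, the 2 IAA libraries did not overlap the 2 controls. The share over all transcripts was not taken, and groups of 2 can separate without any change.

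**Figure D1:**
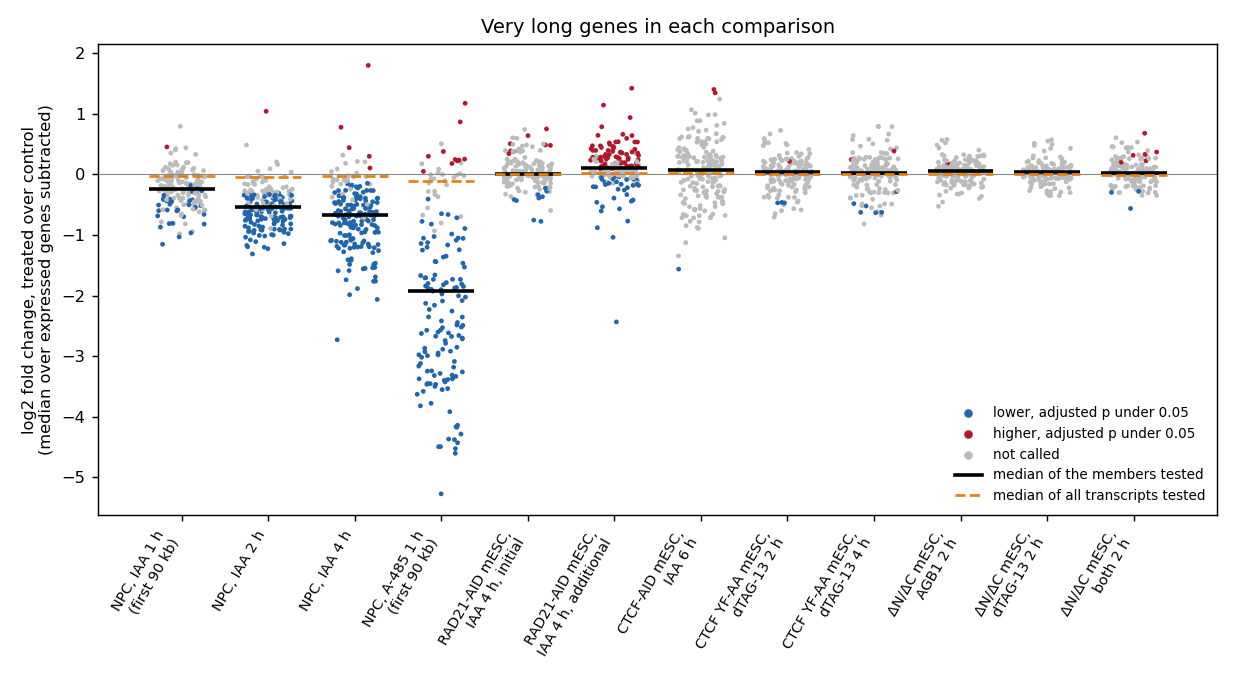
Log2 fold change (y axis, with the median over expressed genes subtracted) of each member tested in 12 comparisons of treated with control libraries (x axis). Blue and red points are members called lower and higher, grey points were not called, the black bar is the median of the members and the dashed orange bar that of all transcripts tested. Calls for the CTCF-AID line are from the model without replicate numbers. The members' median lay at -0.54 and -0.66 in NPCs after 2 and 4 h of IAA and at -1.92 after A-485, and within 0.11 of 0 in every mESC comparison.

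The share of all counts on the members without other genes fell with it. It was 2.07 and 2.02% in the NPC controls, 1.72 and 1.43% after 2 h and 1.49 and 1.59% after 4 h. Without the 18 members that hold other genes, 143 of 169 members were lower at 4 h and 3 higher, and the median was -0.69. The sum of the neuron marker list moved the same way, from 457 to 467 CPM in controls to 335 to 357 CPM at 4 h with none of the 11 genes at 0. The astrocyte list went from 165 to 169 CPM down to 104 to 110 CPM, the oligodendrocyte list from 286 to 294 CPM up to 350 CPM, and the progenitor list from 1344 to 1393 CPM up to 1433 to 1479 CPM. Their part in the result was not tested. Syt1, the calcium sensor of synaptic vesicle release, is on both the neuron list and the member list, and went from 71.1 and 64.3 CPM to 24.4 and 27.6 CPM at 4 h.

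Gene length and the size of the fall moved together in these libraries. At 4 h the share of autosomal transcripts called lower was 11.2% under 50 kb, 30.1% from 50 to 100 kb, 50.8% from 100 to 200 kb, 71.4% from 200 to 500 kb and 82.9% among the members. The medians over these classes were 0.03, -0.09, -0.19, -0.41 and -0.66. At 1 h, over the first 90 kb, the shares called lower were 3%, 12.2%, 24.2%, 25.2% and, among the members, 21.4%. The members' share was thus not the highest at that time, though their median was the lowest. Among the members themselves, leaving out those that hold other genes, 4 classes of rising span were compared at 4 h. Their medians were -0.64, -0.77, -0.73 and, above 1 Mb, -0.69, so these whole-body medians did not continue the gradient past 500 kb. Polymerases that started before IAA can still be far inside such genes, and their part in these medians and in the series over time was not tested. Counts also rise with length, and their part in the share of calls was not tested.

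**Figure D2:**
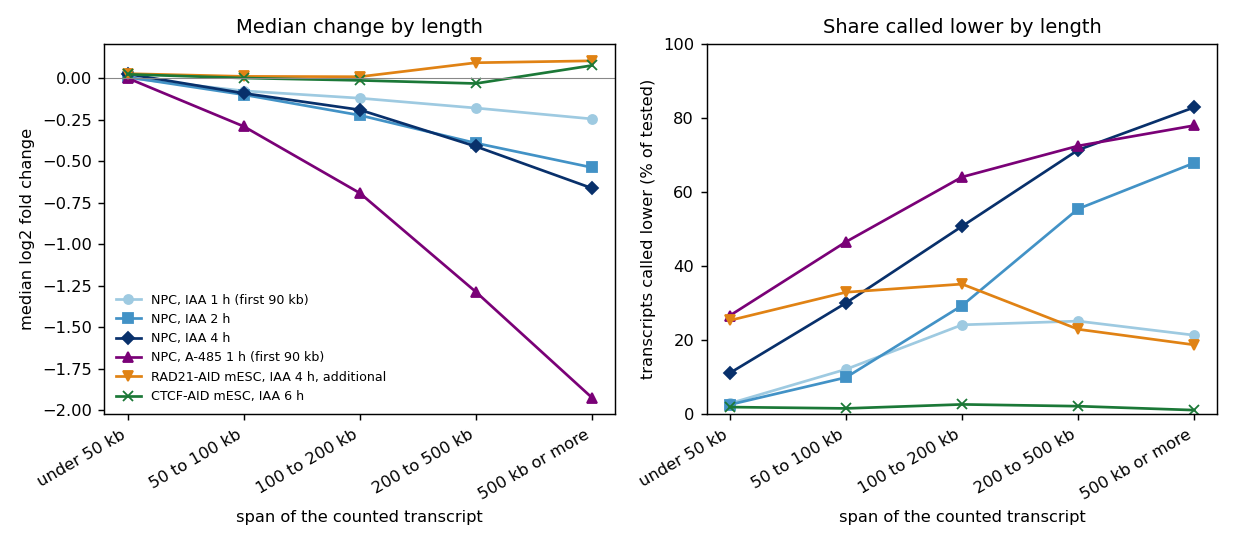
Median log2 fold change (left) and percent of tested transcripts called lower (right) by span of the counted transcript, for 6 comparisons drawn as lines. In NPCs the medians at 500 kb or more were -0.24, -0.54 and -0.66 after 1, 2 and 4 h of IAA and -1.92 after A-485, whereas in RAD21-AID and CTCF-AID mESCs they were 0.11 and 0.08.

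Adhesion genes and channels had the lowest medians at 4 h in NPCs. Among ion channels and neurotransmitter receptors 20 of 21 were lower, with a median of -0.80. Kcnd2 encodes the pore of the neuronal A-type potassium channel and fell more than any other member. It stood at 83.0 and 78.9 CPM in controls, 40.9 and 34.0 CPM after 2 h and 11.2 and 13.9 CPM after 4 h. The 3 groups did not overlap, and the fall at 4 h was 6.63-fold (log2 fold change -2.73, SE 0.08, adjusted p = 6.31e-23). Grm5, a metabotropic glutamate receptor, went from 8.42 and 9.04 CPM to 2.03 and 3.29 CPM at 4 h (-1.76, SE 0.19).

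Of the cell adhesion and axon guidance genes, 42 of 45 were lower, with a median of -0.83. Dscam, which lets sister neurites of a neuron avoid each other, stood at 63.0 and 63.8 CPM in controls, 33.8 and 32.5 CPM after 2 h and 18.8 and 19.6 CPM after 4 h, again without overlap (-1.76, SE 0.07, adjusted p = 1.78e-19). Lsamp, an immunoglobulin-domain protein of limbic neurons, went from 90.5 and 83.7 CPM to 39.0 and 41.7 CPM (-1.15). Fat3 fell less, from 361 and 348 CPM to 241 and 252 CPM (-0.56). Cntnap2 at -0.16 (adjusted p = 0.27) and Lrp1b at -0.09 were among the members that were not called or changed little.

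Of the synaptic scaffolds and trafficking genes 21 of 23 were lower, with a median of -0.61. Sorcs3, a sorting receptor of the VPS10 family, went from 33.7 and 32.4 CPM to 19.4 and 15.6 CPM at 2 h and 7.28 and 9.0 CPM at 4 h (-2.06, SE 0.10, adjusted p = 9.63e-17). Exoc4, the highest member, fell little: it stood at 1389 and 1328 CPM in controls, 1191 and 936 CPM at 2 h and 1146 and 1242 CPM at 4 h (-0.22). Its 2 treated libraries at 4 h still lay below both controls.

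Signalling enzymes and growth factors were lower in 34 of 41 cases and higher in 1, with a median of -0.52. Plcb1, the phospholipase C that acts below Gq-coupled receptors, went from 175 and 170 CPM to 107 and 92.9 CPM at 2 h and 46.3 and 49.9 CPM at 4 h (-1.88, SE 0.05, adjusted p = 8.67e-24). The 1 higher was Agbl1, a deglutamylase of tubulin, from 2.39 and 2.45 CPM to 4.50 and 4.04 CPM (0.78). Of the transcription, chromatin and RNA regulators 8 of 10 were lower and 1, Camta1, was higher by 0.11, but Camta1 holds other genes. Npas3 went from 674 and 654 CPM to 455 and 505 CPM (-0.51). In the small cytoskeleton list 1 of 4 was lower, Lama2, a basement membrane laminin (-1.09), and 1 was higher, Lrmda (0.44, adjusted p = 0.0452), which DESeq2 did not call (adjusted p = 0.234). The lists are coarse: a basement membrane protein stands on this one, and Nav2, which binds microtubules, on the signalling list.

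Members on no role list were lower in 29 of 43 cases, with 2 higher. Egfem1 went from 26.8 and 25.1 CPM to 12.6 and 10.3 CPM at 2 h and 6.37 and 7.10 CPM at 4 h (-1.99, SE 0.11, adjusted p = 1.66e-15). Nell1, a secreted EGF-repeat protein of bone formation, went from 29.2 and 24.4 CPM to 7.92 and 8.54 CPM at 4 h (-1.74), and Fstl5, a follistatin-like protein, from 16.2 and 16.3 CPM to 4.98 and 5.37 CPM (-1.69). Slc7a11, the cystine-glutamate exchanger that supplies cysteine for glutathione, was the clear exception. As given above, its counted span is longer than its RefSeq gene but starts inside that gene, and so leaves out its first part. Slc7a11 stood at 6.09 and 7.41 CPM in controls, 15.8 and 12.6 CPM at 2 h and 24.3 and 24.2 CPM at 4 h, a rise of 3.48-fold (1.80, SE 0.11, adjusted p = 1.59e-14). The other in this group, Iqschfp at 0.30, holds other genes. Of the fragile site list 29 of 32 were lower, with a median of -0.62.

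**Figure D3:**
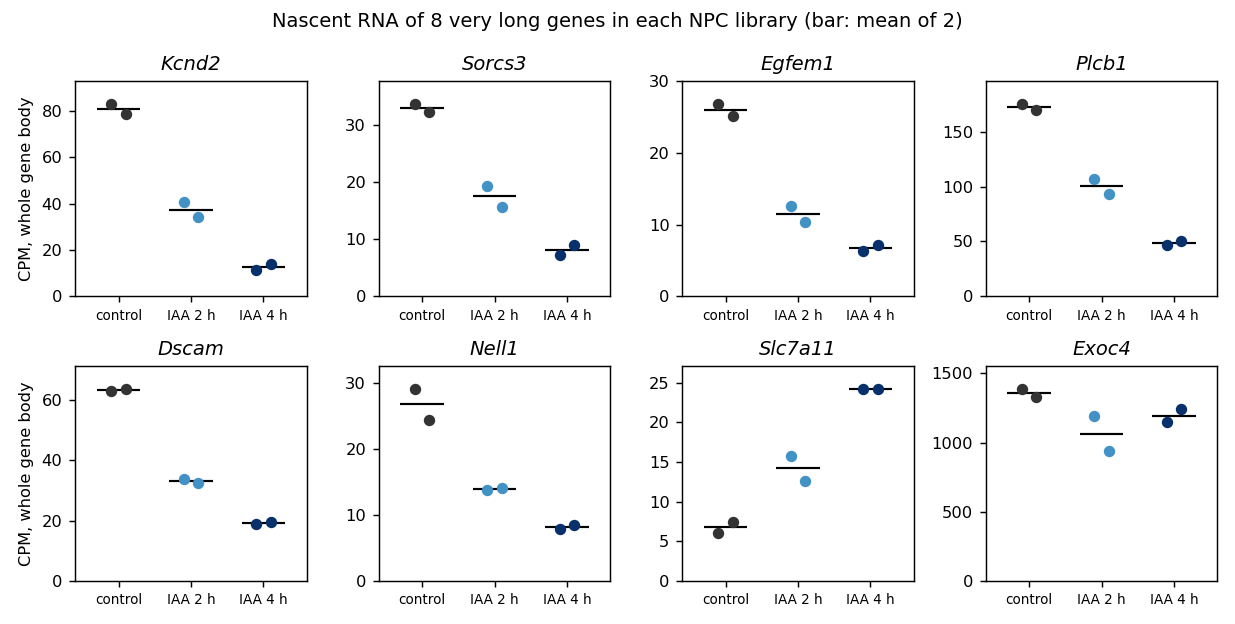
CPM over the whole gene body (y axis, linear from 0) of 8 members in each RAD21-AID NPC library, with 2 points for control, IAA 2 h and IAA 4 h and a bar at their mean. In 6 panels the points step down at each time, such as Kcnd2 from 83.0 and 78.9 to 11.2 and 13.9, in that of Slc7a11 they step up from 6.09 and 7.41 to 24.3 and 24.2, and in that of Exoc4 they lie between 936 and 1389.

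Between 2 and 4 h fewer members differed: 30 of 186 members were lower at 4 h than at 2 h and 1 was higher, with a median of -0.11 (2.02% and 0.828% of all transcripts were called). For 3 members the fall was at least 2-fold and for 0 the rise, against 0.289% and 0.0314% of all transcripts. Kcnd2 fell by a further 2.99-fold. The number of members lower rested on single libraries: it was 79 without replicate 2 of the 2 h libraries, the shallowest of the NPC set, and 14 without replicate 1 of the 4 h libraries. Members called higher numbered 32 without replicate 1 of the 2 h libraries and 4 without replicate 2. At 2 h against controls, the largest falls were those of March1, a ubiquitin ligase (22 and 22.7 CPM to 9.33 and 9.18 CPM, -1.31), Cntn5, a contactin (-1.23), and Egfem1 (-1.20).

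At 1 h, within the first 90 kb, the falls were small. Those named by the rule were Egfem1, from 6.51 and 4.79 CPM to 2.51 and 2.62 CPM (-1.15), Ryr2, the cardiac ryanodine receptor, from 3.22 and 3.25 CPM to 1.98 and 1.28 CPM (-1.03), and Nav2, a microtubule-binding neuron navigator, from 9.19 and 9.17 CPM to 5.03 and 4.57 CPM (-0.97). The treated libraries lay below both controls in each. Slit3, a repellent ligand of Robo receptors, was the only member called higher, from 101 and 101 CPM to 135 and 146 CPM (0.45, SE 0.05, adjusted p = 3.81e-07). Over its whole body it stood at 387 and 392 CPM in controls, 364 and 326 CPM at 2 h (-0.22) and 239 and 258 CPM at 4 h (-0.69), so its first 90 kb at 1 h and its whole body later moved in opposite directions. By DESeq2, 15 members were lower.

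Very long genes also had the lowest median of the length classes after A-485. After 1 h, over the first 90 kb, 124 of 159 members were lower and 10 higher, with a median of -1.92, against 35.3% lower and 32.4% higher and a median of -0.11 over all transcripts tested. For 116 members the fall was at least 2-fold, as it was for 20.2% of all transcripts, and 1 member rose by as much, against 0.825%. Medians by length were 0.00, -0.29, -0.69, -1.29 and -1.92 from under 50 kb to 500 kb or more. Without the members that hold other genes, 118 of 143 were lower, 6 were higher and the median was -2.08. The neuron list summed to 263 to 270 CPM in these controls and 116 to 131 CPM after A-485, and the progenitor list to 1659 to 1713 and 610 to 790 CPM. The astrocyte list went from 204 to 208 CPM down to 50.3 to 61.9 CPM and the oligodendrocyte list from 351 to 362 CPM down to 48.9 to 59.5 CPM. Their part in the result was not tested.

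By role, members lower after A-485 were 36 of 38 adhesion genes (median -2.96), 18 of 19 channels and receptors (-2.23), 9 of 9 transcription regulators (-1.86), 21 of 34 signalling genes (-1.63, with 3 higher) and 14 of 21 scaffolds (-0.98, with 3 higher). Fat3 went from 84.7 and 75.3 CPM to 2.25 and 2.25 CPM, a fall of 38.6-fold (-5.27, SE 0.12, adjusted p = 6.83e-15). Slit3 went from 101 and 101 CPM to 5.27 and 4.33 CPM (-4.52), opposite in direction to its rise after 1 h of IAA over the same bases. Both treated libraries lay far below both controls in these genes.

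Edil3, which stood out because IAA left it at -0.03 (adjusted p = 0.97) at 4 h, went from 108 and 105 CPM to 5.98 and 5.21 CPM after A-485 (-4.38). Hpse2, a heparanase homologue, went from 10.3 and 10.4 CPM to 0.643 and 0.356 CPM (-4.49), and Nckap5, Egfem1 and Rasgef1b changed by -4.49, -4.43 and -4.37. The nearest RefSeq start of Rasgef1b lay 475885 bp downstream of its counted start, beyond the first 90 kb. Lrrc4c, a netrin-G ligand, had 20 and 29 counts in its controls and 0 and 2 after A-485, too few for a fold. Kcnd2 went from 26.5 and 24.7 CPM to 3.15 and 2.25 CPM (-3.37), and Slc7a11, which rose after IAA, from 5.17 and 6.74 CPM to 0.771 and 1.24 CPM (-2.67). The first 90 kb of Slc7a11 were counted from a start inside its RefSeq gene.

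A few members rose after A-485. Smyd3, a methyltransferase, went from 28.4 and 27.5 CPM to 54.6 and 56.6 CPM (0.87), Wwox, an oxidoreductase at a fragile site, from 28.8 and 26.9 CPM to 36.6 and 35.4 CPM (0.25), and Pard3b, a polarity scaffold, from 17.3 and 17.4 CPM to 27.9 and 21.4 CPM (0.38). Lrba was higher by 0.30, and Gm37013, Gm42416 and Gm37388, which hold other genes, by 0.25, 0.24 and 0.22. Dlg2, a postsynaptic scaffold, had 1.34 and 0.473 CPM in controls and 2.19 in both treated libraries (1.18, adjusted p = 0.00998), but without replicate 2 of the controls it was not called (0.58, adjusted p = 0.175). Its nearest RefSeq start lay 613555 bp downstream of the counted start, beyond the first 90 kb. The fragile site list was lower in 18 of 28 cases and higher in 3, with a median of -1.13.

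The first 90 kb could be set against the whole body in the 2 NPC controls, which were counted both ways. The first 90 kb make up a median of 12.7% of a member's span and held a median of 14.5 and 14.6% of its counts in the 2 controls. Per kb, the start carried 1.26 and 1.27 times the counts of the rest, and it exceeded the rest in 122 and 124 of 189 members. In autosomal transcripts of 200 to 500 kb this ratio was 1.03 and 1.04. Members differed widely around it. Among the 156 with at least 200 whole-body counts in each control, 12 had a ratio under 0.25 in both and 17 a ratio above 2 in both.

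Sugct, an enzyme of glutarate metabolism, held 59.3 and 52.8% of its counts in its first 90 kb (95% Wilson intervals 53.9 to 64.5% and 48.0 to 57.5%), and Nkain2, Pcdh9 and Csmd1 held 32.6 and 28.1%, 31.5 and 30.8%, and 19.7 and 18.2%. At the other end, the phosphodiesterase Pde4b held 0.696 and 0.422%, Psd3 0.737 and 0.425%, Dab1 0.952 and 1.95% and Ntm 1.30 and 1.53%. In such members counts over the first 90 kb cover little of the gene's signal. The nearest RefSeq start lay 334012 bp downstream of the counted start for Pde4b and 549677 bp for Ntm. For these 2 members the first 90 kb end before that start. For Dab1 the nearest RefSeq start lay within 1 kb of the counted start. Exoc4 held 17.9 and 17.0% over 12.4% of its span, and Kcnd2 25.9 and 25.4% over 17.5%. The intervals cover counting error only.

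**Figure D4:**
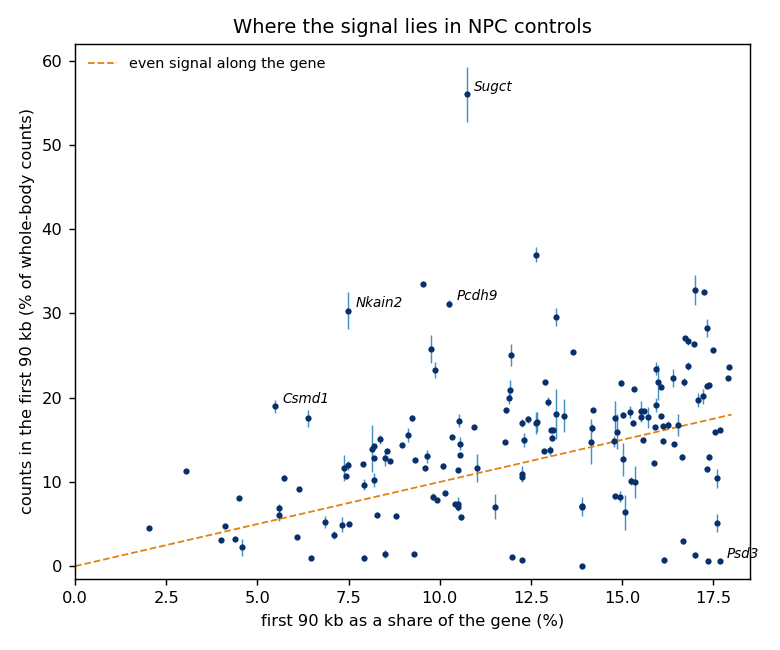
Percent of each member's whole-body counts that lay in its first 90 kb (y axis) against the percent of its span that these bases make up (x axis), for the 156 members with at least 200 counts in each NPC control. Points are means of the 2 controls, vertical lines join both, and the dashed line marks even signal. Sugct at 59.3 and 52.8% lies far above the line and Psd3 at 0.737 and 0.425% near 0.

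In RAD21-AID mESCs the same genes did not fall as a group after 4 h of IAA. In the additional experiment, with 12 libraries a side, 34 of 181 members were lower and 77 higher, with a median of 0.11, against 27.4% lower and 31% higher over all transcripts and a median of 0.03. Without the members that hold other genes it was 31 lower and 68 higher of 163. Changes were small, and 2 members were called at least 2-fold lower and 2 higher, against 0.585% and 0.261% of all transcripts. By length the medians were 0.03, 0.01, 0.01, 0.09 and 0.11. Without the libraries of batch CC52, replicate 1 of each group, 36 were lower and 72 higher. In the initial experiment 10 of 172 members were lower and 8 higher, with a median of 0.00, where 5.23% and 3.4% of transcripts were called, and 0 members changed by at least 2-fold in either direction (0.224% and 0.237%). There, 16 were lower without control replicate 1, 5 lower and 4 higher without IAA replicate 1, and 3 lower and 3 higher without IAA replicate 2. The mESC marker list stood at 4844 to 5040 CPM in the additional controls and 4191 to 4373 CPM after IAA, and its part in the result was not tested.

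Adhesion genes were lower in 5 and higher in 18 of 44 cases in the additional experiment, channels and receptors in 5 and 6 of 21, signalling genes in 7 and 20 of 40, scaffolds in 7 and 5 of 22, transcription regulators in 1 and 4 of 9, and the fragile site list in 3 and 13 of 31. Over all members tested 18.8% were lower and 42.5% higher, and over autosomal transcripts of 200 to 500 kb 23% and 45.4%. Differences between the lists were not tested. Enox1, a plasma membrane NADH oxidase, changed most. Its 12 controls ran from 116 to 140 CPM (median 130) and the 12 IAA libraries from 19.8 to 26.2 CPM (median 24.7), with no overlap between the groups (-2.43, SE 0.03, adjusted p = 7.8e-49). Its promoter is the first of those printed. In the initial experiment Enox1 stood at 6.83 and 10.2 CPM in controls and 7.22 and 8.41 CPM after IAA (-0.13, adjusted p = 0.77), so its control level differed between the experiments by more than its response did.

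Dscam went from 8.27 to 11.6 CPM (median 9.61) down to 3.62 to 5.8 CPM (median 4.79), a change of -1.04. Dab1, the adaptor of Reelin signalling, went from 82.8 to 100 CPM (median 93.3) down to 44.1 to 55.8 CPM (median 49.8), a change of -0.88. Neither overlapped between the groups. Malrd1, Tmem132d, Fstl5, Nkain3 and Grid1 changed by -0.77, -0.60, -0.57, -0.53 and -0.46.

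Pde4b, which degrades cyclic AMP, rose from 2.52 to 4.97 CPM (median 3.36) to 7.94 to 12.2 CPM (median 9.18), a change of 1.42, and Rgs6, a brake on G protein signalling, from 2.90 to 4.40 CPM (median 3.37) to 6.81 to 9.10 CPM (median 7.55), a change of 1.14. Their groups did not overlap. Agbl1, Ralyl, Slc7a11, Gm20754, Asic2 and Rasgef1b rose by 0.94, 0.79, 0.66, 0.64, 0.64 and 0.60. In the initial experiment the rule named Tmem132d (22.5 and 22.3 CPM to 13.9 and 12.2 CPM, -0.77), Nckap5 (-0.75), Alk (-0.43), Rgs6 (8.74 and 7.62 CPM to 14.1 and 13.2 CPM, 0.75), Hpse2 (0.64) and Cdh13 (0.51). Pde4b stood there at 40.2 and 40.8 CPM in controls and 56.5 and 48.8 CPM after IAA (0.38).

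The effect of 4 h of IAA differed between NPCs and mESCs when the difference itself was tested. The interaction of treatment and cell type was called for 156 of 189 members, 150 of them more negative in NPCs and 6 more positive, where 33.4% of all transcripts were called, 18.3% more negative and 15.1% more positive. With the initial mESC experiment in its place 120 members were called, against 16.6% of all transcripts, and with DESeq2 148, against 32.6%. Of the 179 members tested in both cell types, 116 had a negative fold change in NPCs and a positive one in mESCs. A further 51 were negative in both, 10 positive in both, and 2 positive in NPCs and negative in mESCs. These signs were not counted over all transcripts. Kcnd2, at -2.73 in NPCs and 0.17 in mESCs, and Enox1, at -1.01 and -2.43, stood at opposite ends of the named genes. Slc7a11 rose in both and Dscam fell in both. Cell type, experiment and batch cannot be told apart here.

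**Figure D5:**
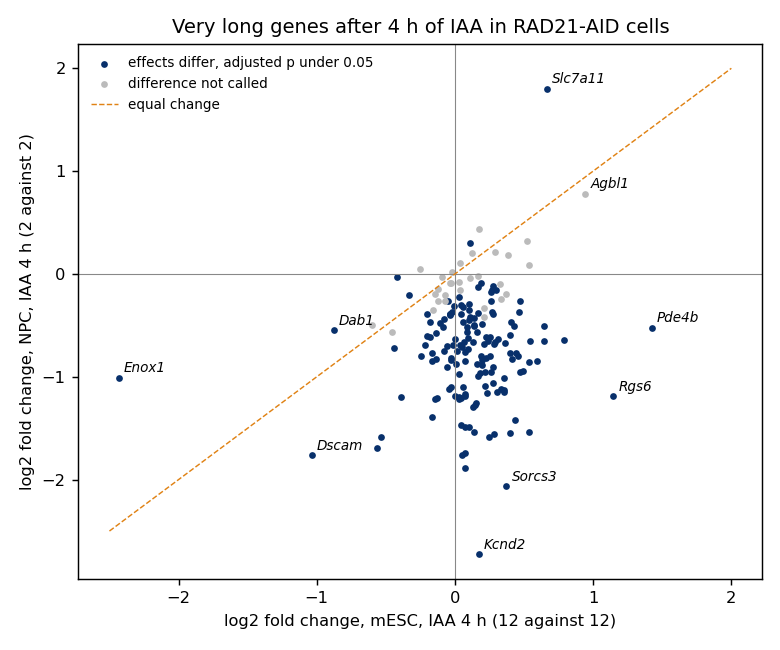
Log2 fold change of each member after 4 h of IAA in RAD21-AID mESCs (x axis, 12 against 12 libraries) and NPCs (y axis, 2 against 2). Dark points are members whose effects differed in the interaction test, grey points were not called and the dashed line marks equal change. Of 179 members, 116 lie at negative NPC and positive mESC values.

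After 6 h of IAA in CTCF-AID mESCs, how many very long genes were called depended on the pairing of the libraries. Without the replicate number in the model, 2 of 170 members tested were lower and 2 higher, with a median of 0.08, where 2.01% and 1.57% of transcripts were called. The replicate numbers were taken to pair these libraries. With the number as a block, 50 members were lower and 34 higher, where 15.3% and 13.9% of 15611 transcripts were called. At least 2-fold changes were called, without the block, for 1 member lower and 2 higher, against 0.89% and 0.564%. The adjusted p values given for genes of this line, and the choice of the genes named, are also without the block. Dab1 went from 21.1 and 16.2 CPM to 5.70 and 6.00 CPM in the unstranded libraries and from 21.6 and 44.1 CPM to 6.16 and 16.3 CPM in the stranded ones (-1.56, SE 0.32, adjusted p = 0.0343). Immp2l, a subunit of the mitochondrial inner membrane peptidase, went from 113 and 112 CPM to 77.1 and 74.5 CPM and from 115 and 143 CPM to 64.9 and 97.8 CPM (-0.58, adjusted p = 0.0426). In Dab1 and Immp2l the treated libraries lay below the controls of their own type.

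Pde4b rose from 14.6 and 14.4 CPM to 42.2 and 33.4 CPM and from 14.4 and 18.8 CPM to 45.2 and 40.7 CPM (2.64-fold, adjusted p = 0.000697), again without overlap. Adamtsl1, which Sh3gl2 overlaps in part on the same strand, was higher by 1.35 (adjusted p = 0.0451). Without the block, these counts rested on few libraries. No member was called lower without any 1 of the 4 unstranded libraries or without stranded control replicate 2. Without stranded control replicate 1, 1 was lower. Without stranded IAA replicate 2, 8 were lower and 5 higher. Leaving out libraries was not combined with the block. Members called higher numbered 1 without any 1 of the unstranded libraries, stranded control replicate 1 or stranded IAA replicate 1. With unstranded libraries alone 11 were lower and 6 higher, and with stranded ones alone 0 and 0.

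In the other CTCF lines the changes were small. In CTCF YF-AA cells, dTAG-13 left 3 of 157 members lower and 1 higher at 2 h (2.7% and 1.24% of transcripts) and 6 of 161 lower and 3 higher at 4 h (3.4% and 1.6%). The 3 lower at 2 h were Gm37388, Gm37013 and Gm42416, at -0.47, -0.47 and -0.46, which overlap one another, share reads and hold other genes, and at 4 h they made up 3 of the 6, at -0.63 each. Ptprt, a receptor tyrosine phosphatase, went from a mean of 234 CPM ± 10.8 (SD, n = 2) in controls to 269 CPM ± 3.56 (SD, n = 2) at 2 h (0.22, not called without control replicate 2 or either treated library) and 274 CPM ± 1.56 (SD, n = 2) at 4 h (0.24). Enox1 went from 151 and 153 CPM to 206 and 190 CPM at 4 h (0.39, adjusted p = 1.13e-05), and Cntnap2 was higher by 0.17.

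In the cells with ΔN and ΔC alleles, AGB1 left 0 of 146 members lower and 1 higher (1.49% and 0.653% of transcripts), dTAG-13 0 and 0 of 143 (0.00734% and 0.0734%, with 7 members at an unadjusted p under 0.05 in edgeR), and both together 3 lower and 6 higher of 143 (4.55% and 2.04%). For both agents, 1 was lower without control replicate 1 or treated replicate 2, and 3, 1 and 1 were higher without control replicate 1, control replicate 2 and treated replicate 1. Smyd3, the 1 higher after AGB1, went from 331 and 329 CPM to 367 and 377 CPM (0.18), and was not called without either AGB1 library, while 2 and 3 members were without control replicates 1 and 2. After both agents Ryr2 went from 179 and 171 CPM to 148 and 140 CPM (-0.28), while Ntm and Rims1 changed by -0.56 and -0.30, and Epha6, Nckap5 and Rora by 0.68, 0.37 and 0.33. No member changed by at least 2-fold in these lines, where 0.664% and 0.15% of transcripts were called lower and higher in CTCF YF-AA cells at 2 h, 0.791% and 0.238% at 4 h, 0.316% and 0.0881% after AGB1, 0% and 0% after dTAG-13 and 0.633% and 0.175% after both agents. The members' medians in these 5 comparisons were 0.03 to 0.06.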

How the data were processed

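The authors mapped EU-seq reads with bwa meme (mm10), filtered them with samtools 1.4 by mapping quality and with Bedtools for rRNA and tRNA, and used HTSeq to count what was left over the gene body, for which each gene had a single chosen transcript from GENCODE M25. The deposited values are raw counts without normalization for 60 libraries. The NPC columns for 1 h of IAA and for A-485 were limited to the first 90 kb, the NPC controls were deposited both ways, and the names of other columns carry no limit, although a limit for 2 h treatments appears in the methods. Whether gene counting used strand is not given in the sources used here. The treatment text of 18 libraries describes triptolide, while their titles name IAA or dTAG, and the titles were followed.

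Spans came from GENCODE M21 (GRCm38). In each of 13 comparisons, transcripts whose mean count exceeded 20 in either group were tested with edgeR 4.0.16 (TMM, quasi-likelihood F test, two-sided, Benjamini-Hochberg adjustment over all transcripts) in R 4.3.3, adding library type to the CTCF-AID model, and called at an adjusted p under 0.05. Log2 fold changes had the median over genes above 15 TPM subtracted. The p values and SEs belong to the values before this subtraction, while the direction of a call was taken after it. The median subtracted was 0.123 for A-485 and 0.0317 for NPC 4 h. CPM values are TMM-scaled, and those of the first 90 kb are relative to counts limited in the same way. Library totals of 4027449 to 21898781 set the precision. Among 151 replicate pairs, chi-square per degree of freedom was 1.44 to 38.2, so each library counted as 1 replicate. Named genes were the called members with the largest change in each direction that moved alike in every same-numbered pair (10 of 12 in the additional experiment): 8 each for NPC 4 h, A-485, the additional mESC and CTCF-AID comparisons and 3 each elsewhere, with the 5 highest, the 5 longest and those at the limit. Other genes, such as Syt1, Fat3 and Exoc4 beside their own comparisons, were named as examples after their values were seen. Members, lists and rules were chosen with earlier results of these data known.

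Deviations from group means in same-numbered libraries correlated at over 0.1 in all 4 CTCF-AID pairs (0.465 unstranded, 0.784 stranded). These numbers were therefore taken to pair samples. The 2 pairs of a library type share 1 value, since each group of that type holds 2 libraries. Alternatives were a 2-fold limit, DESeq2 1.42.0, no count filter, the replicate block, no centring, each library type, each replicate left out and, for the interaction, the initial mESC experiment. Leaving out members that hold other genes, and crossing replicate numbers, were added after seeing the data. The pipeline was tested on simulated data.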

Additional observations from a re-analysis of the deposited data

Results flagged for a closer look

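By the interaction term of edgeR's quasi-likelihood test, the response to 4 h of IAA differed between RAD21-AID NPCs and mESCs for 156 of 189 members. A difference was called for 33.4% of all transcripts, and for 19 of the 25 members named at 4 h in either cell type. Differences are given as NPC minus mESC on the log2 scale, without the centring used for fold changes. The effect was more negative in NPCs for 15 of them: Kcnd2 (-2.86), Sorcs3 (-2.40), Egfem1 (-2.31, below the count filter in mESCs alone), Rgs6 (-2.29), Plcb1 (-1.92), Pde4b (-1.91), Nell1 (-1.77), Grm5 (-1.77), Rasgef1b (-1.40), Ralyl (-1.39), Gm20754 (-1.26), Asic2 (-1.11), Fstl5 (-1.09), Nkain3 (-1.02) and Dscam (-0.69). It was more positive in NPCs for Enox1 (1.46), Slc7a11 (1.17), Dab1 (0.37) and Iqschfp (0.23), the last of which holds other genes. The difference was not called for Agbl1, Grid1, Camta1, Tmem132d, Lrmda and Malrd1. Cell type, experiment and batch cannot be told apart in these differences.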

How the results depend on the processing

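The main directions in NPCs were kept under every alternative run: leaving out 1 library, members lower numbered 23 to 28 (IAA 1 h), 91 to 154 (IAA 2 h), 150 to 154 (IAA 4 h) and 115 to 125 (A-485), and medians were -0.25 to -0.20, -0.67 to -0.43, -0.72 to -0.61 and -2.08 to -1.87. Members higher numbered 1 to 2, 1 to 3, 4 to 5 and 8 to 14. The extra called at 1 h and 2 h came without control replicate 2, and without either IAA 2 h library. For 4 h against 2 h, 14 to 79 were lower, 1 to 32 higher and the median was -0.21 to -0.03. In mESCs the small counts depended on single libraries. In the initial experiment 3 to 16 were lower (16 without control replicate 1, 5 and 3 without IAA replicates 1 and 2), 3 to 9 higher (4 and 3 without those IAA libraries) and the median was -0.03 to 0.05. For CTCF-AID, without the replicate block, 0 to 8 were lower, 1 to 5 higher and the median 0.03 to 0.12. For CTCF YF-AA 3 to 4 were lower and 0 to 1 higher at 2 h, with a median of -0.01 to 0.06, and 5 to 8 lower and 1 to 3 higher at 4 h, 1 without dTAG-13 4 h replicate 1, with a median of -0.0060 to 0.071 that turned negative without control replicate 2. For AGB1 0 to 1 were lower and 0 to 3 higher, with a median of 0.05 to 0.08, for dTAG-13 the median was 0.026 to 0.048, and for both agents 1 to 2 were lower, 1 to 6 higher and the median -0.025 to 0.072, negative without replicate 1 of the treated libraries.

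With a 2-fold limit, members lower and higher numbered 2 and 0 (NPC 1 h), 12 and 1 (NPC 2 h), 49 and 1 (NPC 4 h), 116 and 1 (A-485), 3 and 0 (4 h against 2 h), 0 and 0 in the initial and 2 and 2 in the additional mESC experiment, 1 and 2 for CTCF-AID, 0 and 0 for CTCF YF-AA at either time, and 0 and 0 for AGB1 and for both agents. DESeq2 called 15 lower at NPC 1 h, 4 lower and 4 higher in the initial experiment, 13 lower for CTCF-AID, 0 and 1 higher for CTCF YF-AA at 2 and 4 h, 0 higher for AGB1, and 1 lower and 0 higher for both agents. Without the count filter, 5 were higher for 4 h against 2 h, 1 lower for CTCF-AID, 2 higher for AGB1, 10 higher for both agents, and the dTAG-13 median was 0.049. With the replicate block, 4 were higher for 4 h against 2 h, 50 lower and 34 higher for CTCF-AID, 0 higher for CTCF YF-AA at 2 h, 4 higher for AGB1 and 10 higher for both agents, and the block moved no other count by over 1.5 times. Outside CTCF-AID the numbers were not taken to pair samples, under a rule of 3 or more pairs all above 0.1. Comparisons with 2 pairs could not meet it. Among these, same-numbered libraries correlated at 0.196 for NPC 2 h and 0.103 for A-485, so pairing there was left undecided. In the additional experiment 6 of 12 libraries correlated best with their own number (-0.016 to 0.361, the highest for number 1, which marks batch CC52 in both groups) and the block gave 35 lower and 80 higher. The NPC 1 h and initial mESC numbers correlated at -0.134, and crossed numbers gave 5 higher at NPC 1 h. Without centring, the NPC 1 h median was -0.22. For CTCF-AID, unstranded libraries alone gave 11 lower and 6 higher, stranded ones alone 0 and 0 with a median of -0.10, opposite in sign, and no covariate for library type 0 and 1. Without members that hold other genes, the medians were -0.27 at NPC 1 h, -2.08 after A-485 and 0.046 for dTAG-13, members higher numbered 3 at NPC 4 h, 6 after A-485 and 1 for CTCF-AID, and members lower 0 and 3 for CTCF YF-AA at 2 and 4 h. The median share of counts in the first 90 kb was 15.1% with no other transcript there and 15.4% without members that hold other genes, against 14.5%. The cause was not tested. No gene named by the rule changed sign in its own comparison under any alternative. Since the rule asked same-numbered pairs to move alike, this was in part fixed by the choice. Genes named as examples were not run. Most groups hold 2 libraries, and depth limits members near 20 counts, such as Lrrc4c and Dlg2.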
